A study of Rattus norvegicus with 6 samples.

Results

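The P2 receptors for extracellular nucleotides were examined in spinal cord RNA-seq of sham rats and of rats with neuropathic pain after spared nerve injury (SNI-NP rats). The 10 genes described were found by their symbols in the deposited table of 22050 genes, of which 14426 had enough counts to be tested: the ion channel genes *P2rx2*, *P2rx3*, *P2rx4*, *P2rx5*, *P2rx6* and *P2rx7* and the genes of the G protein-coupled receptors *P2ry1*, *P2ry2*, *P2ry6* and *P2ry14*. All 10 passed the filter on low counts. The table holds 5 further P2 receptor genes (*P2rx1*, *P2ry4*, *P2ry10*, *P2ry12* and *P2ry13*), which are described after them.

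The rats were young adult male Sprague-Dawley animals. In the spared nerve injury model, branches of the sciatic nerve are damaged while the sural branch is left intact, and sham rats underwent the sham operation. There were 3 libraries of each group, and the labels give the tissue as spinal cord. The time after surgery, the cord segment and the side are not given in the sources used here. The labels do not state whether a library was made from 1 animal, so the p-values measure only the spread between these libraries.

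ATP released from damaged or active cells opens P2X receptors, which are trimeric cation channels, while ATP, ADP, UTP, UDP and UDP-glucose act on the P2Y receptors, which signal through G proteins. In the pain pathway P2X3, alone or combined with P2X2, is known from the small sensory neurons of the dorsal root ganglion, and P2X4, P2X7, P2Y6 and P2Y12 are best known from microglia. Ectoenzymes then break the nucleotides down to adenosine, which has receptors of its own.

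The libraries held between 16670760 and 18151156 estimated counts, so depth differed by at most 1.09-fold. Levels are given as CPM, which are counts relative to library size after TMM scaling, and where a library held no count of a gene its level could still reach 0.165 to 0.18 CPM through counting error alone. Markers of astrocytes, oligodendrocytes, microglia and neurons were present in all 6 libraries, but so were markers of peripheral nerve, with *Prx*, a protein of peripheral myelin sheaths, at 4030.0 to 6416 CPM. All 7 markers of dorsal root ganglion sensory neurons were also detected, and they were lowest in SNI-NP replicate 1. The defining markers of peripheral nerve and of sensory neurons were thus present beside those of spinal cord. In bulk tissue, fewer cells of a type and less RNA per cell cannot be told apart, and this holds for every gene below.

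Promoter sequences are shown for *P2ry2*, the single member with an unadjusted p under 0.05, and for *P2rx3*, the member whose level varied most between libraries. RefSeq (assembly GRCr8, which is a later build than the one the reads were mapped to) had promoters for 7 of the 10 genes, from 250 bases before to 50 after the start. In the lines that follow, capitals mark the GC box (GGGCGG), the CCAAT box (CCAAT) and the E-box (CACGTG), read on both strands. The sequences are from the minus strand at chr1:164779439-164779738 for *P2ry2*, and at chr3:90529260-90529559 and chr3:90531266-90531565 for 2 starts of *P2rx3*.
P2ry2: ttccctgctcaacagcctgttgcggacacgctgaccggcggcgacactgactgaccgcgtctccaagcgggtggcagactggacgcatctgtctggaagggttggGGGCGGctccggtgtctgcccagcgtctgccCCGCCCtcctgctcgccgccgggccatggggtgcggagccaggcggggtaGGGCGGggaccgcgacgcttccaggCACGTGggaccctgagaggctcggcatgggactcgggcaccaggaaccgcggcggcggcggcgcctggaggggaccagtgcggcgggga
P2rx3, start A: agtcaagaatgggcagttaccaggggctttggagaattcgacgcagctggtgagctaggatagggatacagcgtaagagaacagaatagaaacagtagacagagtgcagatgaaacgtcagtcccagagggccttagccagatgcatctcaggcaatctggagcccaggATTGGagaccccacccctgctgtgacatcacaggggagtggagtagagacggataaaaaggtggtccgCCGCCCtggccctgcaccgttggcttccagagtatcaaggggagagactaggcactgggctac
P2rx3, start B: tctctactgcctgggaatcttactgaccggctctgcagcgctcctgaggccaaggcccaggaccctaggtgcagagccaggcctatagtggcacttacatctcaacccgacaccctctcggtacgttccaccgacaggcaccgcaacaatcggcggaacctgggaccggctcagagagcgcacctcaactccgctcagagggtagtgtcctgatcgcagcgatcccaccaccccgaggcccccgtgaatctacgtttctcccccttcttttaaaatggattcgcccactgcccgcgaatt
The *P2ry2* window was 73% G and C, against a median of 51.7% over all 33469 promoters, and held 3 GC boxes and 1 E-box. The *P2rx3* windows were 55% and 60% G and C. Start A held 1 GC box and 1 CCAAT box, and start B held no match. Over all promoters of the same length, 33.1% held a GC box, 37.5% a CCAAT box and 6.42% an E-box. The TATA box (TATAAA, in 14.2% of all promoters), the CRE (TGACGTCA, 1.83%) and the AP-1 motif (TGAGTCA, 4.63%) were searched in the same way and had no match in these 3 windows. A match describes letters in a window, and binding was not measured in these libraries.

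Levels were first compared between genes per transcript length, as FPKM. *P2rx3* had a mean of 36.95 FPKM over the 6 libraries and *P2ry2* had 36.7 FPKM. The first ranged from 4.95 to 68.45 FPKM and the second from 30.28 to 43.27 FPKM, so the order of these 2 genes is within their spread. *P2rx6* (17.3 FPKM), *P2rx4* (15.8 FPKM) and *P2rx7* (10.8 FPKM) followed. Then came *P2ry1* with 5.33 FPKM, *P2ry6* with 3.26 FPKM, *P2ry14* with 2.92 FPKM, *P2rx5* with 2.90 FPKM and *P2rx2* with 1.82 FPKM. The ranges of neighbours in this order over all 15 P2 receptor genes overlapped, except between *P2ry2* and *P2rx6*, between *P2rx7* and *P2ry1*, and between *P2ry13* and *P2ry4*.

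**Figure D1:**
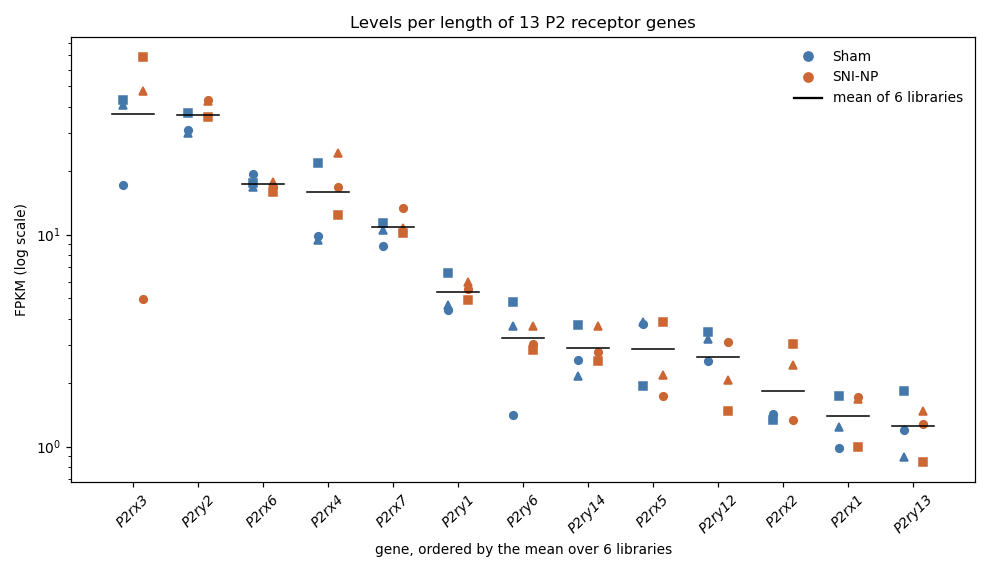
Level per transcript length (FPKM, log axis) of 13 P2 receptor genes in each library, with sham rats in blue, SNI-NP rats in orange, replicates 1, 2 and 3 as circles, squares and triangles, and a bar at the mean of 6 libraries. *P2rx3* ranged from 4.95 to 68.45 FPKM, whereas *P2rx6* stayed between 15.89 and 19.23 FPKM. *P2ry4* and *P2ry10*, near 0, are left out.

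The comparison of SNI-NP with sham rats asks which transcripts differ in these libraries, labelled spinal cord, in this pain model. None did so past the adjusted threshold of 0.05 (edgeR quasi-likelihood, Benjamini-Hochberg), with 0 of the 10 genes and 0 of all 14426 genes (0%). At an unadjusted p under 0.05 there were 1565 genes, and DESeq2 gave 192 genes past its adjusted threshold, with no member among them. Of the 10 P2 receptor genes, 1 had an unadjusted p under 0.05, against 10.8% of all genes tested, and it was higher in SNI-NP rats, as were 4.91% of all genes tested. In 0 of the 10 were the 3 SNI-NP values all above or all below the 3 sham values, against 18.5% of all genes tested. The fitted difference was positive for 8 and negative for 2, with a median of 0.17 on the log2 scale (0.01 over all genes).

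**Figure D2:**
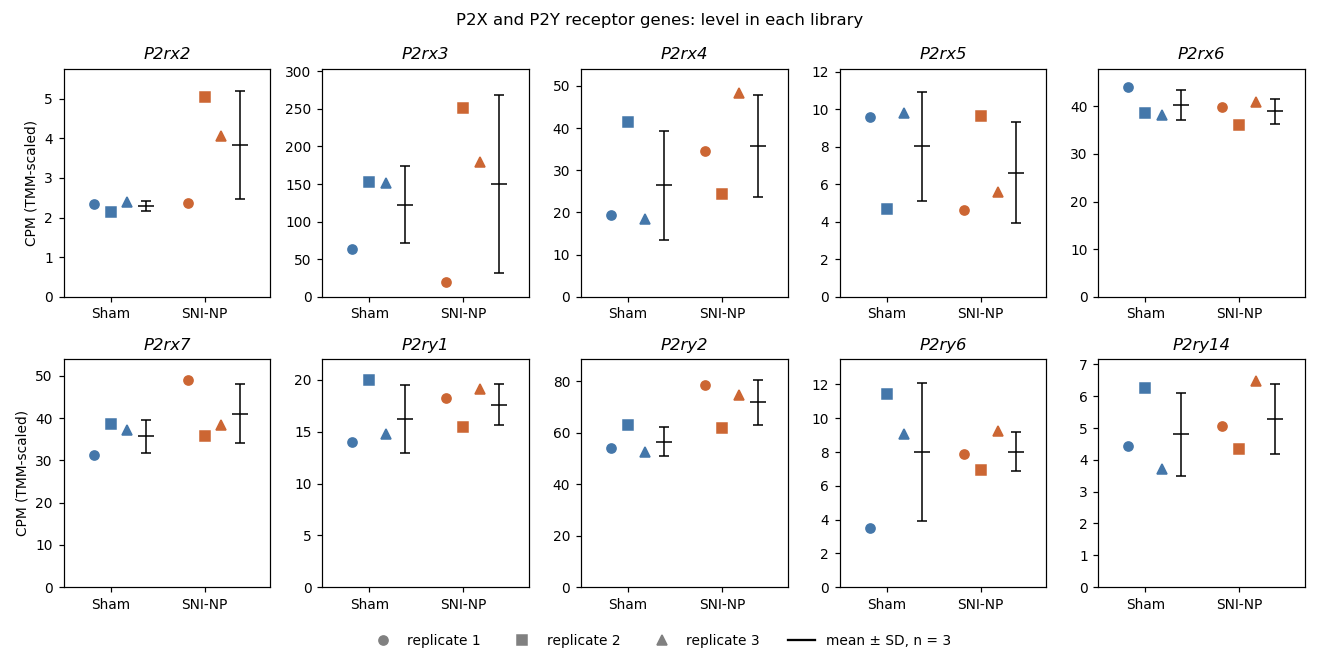
CPM scaled by TMM factors of the 10 P2 receptor genes in each library, with sham rats in blue, SNI-NP rats in orange, a marker shape per replicate number, and bars for the mean ± SD of 3 libraries. In every panel the values of the groups overlap.

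Among the P2X channels, *P2rx3* (ENSRNOG00000008552), the channel subunit of small nociceptive sensory neurons, had 64.0, 153 and 151 CPM in sham libraries and 19.2, 251.5 and 179 CPM in SNI-NP libraries. The means were 123 ± 50.8 CPM in sham and 149.9 ± 119 CPM after injury (SD, n = 3). The lowest and the highest of the 6 values were both in the SNI-NP group. The span from lowest to highest was 13.1-fold, and 98.3% of all genes tested spanned less. The log2 difference of 0.29 had a standard error of 0.77 and a 95% interval from -1.52 to 2.09, so neither direction was resolved (edgeR quasi-likelihood, adjusted p = 0.910). It was -0.31 to 0.81 when 1 library at a time was left out, with the highest value without SNI-NP replicate 1, the library lowest in sensory neuron markers (edgeR adjusted p = 0.412).

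The spread of *P2rx3* went along with that of the sensory neuron markers. The summed level of the 7 markers (*Scn10a*, *Scn11a*, *Trpv1*, *Mrgprd*, *Avil*, *Prdm12* and *Prph*) was 535, 925 and 1125 CPM in sham libraries and 187, 1624 and 1136 CPM in SNI-NP libraries, an 8.66-fold span. None of the 7 had an unadjusted p under 0.05 in the edgeR fit. The count of *P2rx3* was 11.97%, 16.5% and 13.4% of the summed marker counts in sham libraries and 10.2%, 15.5% and 15.8% in SNI-NP libraries, a 1.62-fold span. Set against the sum of these 7 markers, *P2rx3* was at 13.98% ± 2.34 in sham and 13.8% ± 3.11 in SNI-NP rats (exact permutation test, two-sided, p = 1, the smallest possible being 0.1). This ratio was chosen after the values had been seen, so its p-value is no evidence that the shares were equal. The ratio also depends on the markers summed, since *Prph* alone made up 130 of the 187 CPM in SNI-NP replicate 1. In sham libraries *Prph* made up 234 of 535, 342 of 925 and 428 of 1125 CPM. In SNI-NP replicates 2 and 3 it made up 722 of 1624 and 477 of 1136 CPM. In that library *P2rx3* (19.2 CPM) was above *Scn10a* (14.3 CPM), whereas it was below *Scn10a* in every other library. The ratio without *Prph* was not tested, so the shares above hold only for the sum that includes *Prph*. *Acpp*, a phosphatase known from the same class of sensory neurons, was also chosen after its values had been seen. Like *P2rx3*, it was lowest in SNI-NP replicate 1 and highest in SNI-NP replicate 2, with counts of 336, 902 and 884 in sham and 48, 1269 and 848 in SNI-NP rats. Its share of the marker counts was less steady, at 1.47% in SNI-NP replicate 1 and 3.77% to 5.49% in the other libraries, a 3.73-fold span. This share also depends on *Prph* in the sum, and the share of *Acpp* without *Prph* was not tested.

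**Figure D3:**
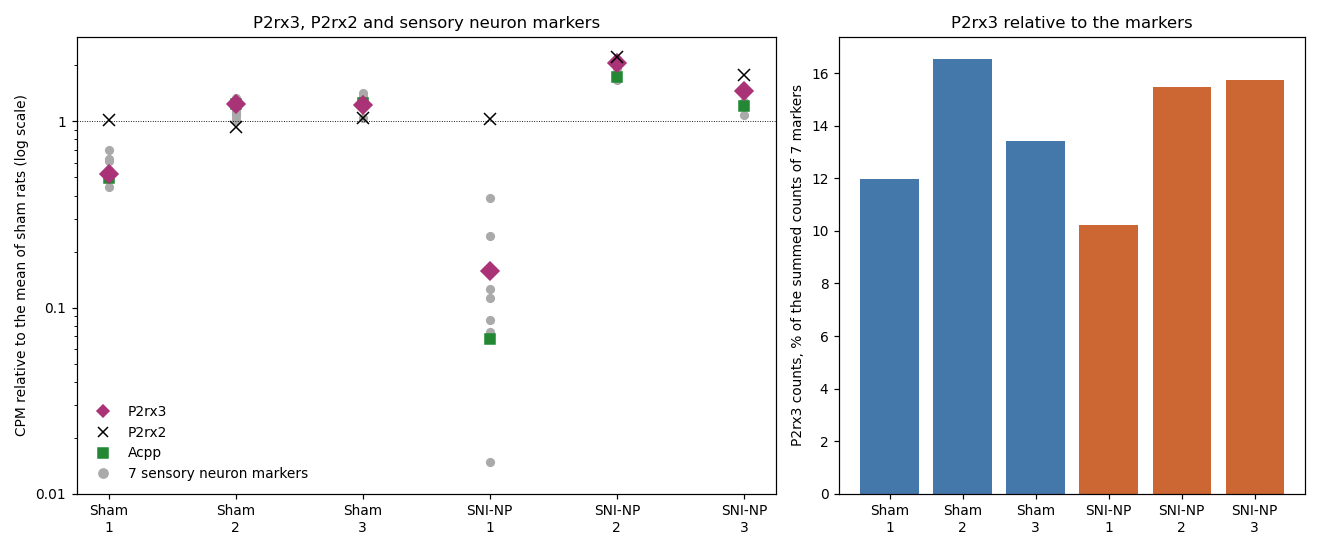
Left, CPM of *P2rx3*, *P2rx2*, *Acpp* and the 7 sensory neuron markers in each library, relative to the mean of the sham rats (log axis, the dotted line at 1). Right, *P2rx3* counts as a percentage of the summed marker counts, from 10.2% to 16.5%. *P2rx3* lies within or beside the markers in each library, also in SNI-NP replicate 1, where they were lowest.

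*P2rx2* (ENSRNOG00000037456), whose product combines with P2X3, was much scarcer, with 39, 38 and 41 counts in sham libraries and 41, 91 and 70 in SNI-NP libraries. This corresponds to 2.34, 2.14 and 2.39 CPM against 2.36, 5.05 and 4.06 CPM. SNI-NP replicate 1 was at the sham level and the other two SNI-NP libraries were above it. The log2 difference of 0.74 (SE 0.32, 95% interval -0.01 to 1.49) was the largest among the 10 genes and just missed an unadjusted threshold of 0.05 (edgeR quasi-likelihood, adjusted p = 0.463). Without SNI-NP replicate 1 it was 0.99 and passed the unadjusted threshold, but not the adjusted one (edgeR quasi-likelihood, adjusted p = 0.133). Without SNI-NP replicate 2, the highest library, it was 0.49 and did not pass. Relative to the sensory neuron markers, the order differed from that of the CPM values: *P2rx2* was at 0.438%, 0.231% and 0.212% of the marker counts in sham and at 1.26%, 0.311% and 0.357% in SNI-NP rats, with SNI-NP replicate 1 the highest (exact permutation test, two-sided, p = 0.4). That library had the lowest marker sum (187 CPM), and it was the highest in this ratio for every member except *P2rx3*.

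*P2rx4* (ENSRNOG00000001300), the channel linked to the response of spinal microglia to nerve injury, had 19.4, 41.4 and 18.5 CPM in sham libraries and 34.6, 24.3 and 48.4 CPM in SNI-NP libraries. The means were 26.4 ± 12.9 and 35.7 ± 12.1 CPM (SD, n = 3). Sham replicate 2 exceeded 2 of the 3 SNI-NP libraries, and SNI-NP replicate 2 lay near the lower sham values. The log2 difference was 0.43 (SE 0.37, 95% interval -0.43 to 1.29), with an adjusted p = 0.666 (edgeR quasi-likelihood). It depended on single libraries in both directions. Without sham replicate 2 it was 0.92 and passed an unadjusted p of 0.05 (edgeR quasi-likelihood, adjusted p = 0.264), whereas it was 0.23 without sham replicate 1, 0.20 when sham replicate 3 was omitted and 0.11 when SNI-NP replicate 3 was. The same 3 libraries that were high in *P2rx4* were high in the sum of 5 skeletal muscle markers, which was 12.1, 72.1 and 30.7 CPM in sham and 169, 10.2 and 423 CPM in SNI-NP rats. They were also the highest in the sum of 3 markers of Schwann cells and peripheral myelin (*Prx*, *Pmp2* and *Ncmap*), which was 6036, 6355 and 5248 CPM in sham and 8306, 5943 and 7235 CPM in SNI-NP rats. Taken singly, only *Ncmap* was highest in these libraries. *Prx* was lower in sham replicate 2 (4496 CPM) than in sham replicate 1 (4637 CPM). *Pmp2* was lower in SNI-NP replicate 3 (1295.5 CPM) than in sham replicate 1 (1301 CPM). The part of muscle and of peripheral nerve in the level of *P2rx4* was not tested. The 8 microglia and macrophage markers summed to 347, 467 and 411 CPM in sham and 402, 392 and 419 CPM in SNI-NP rats. Their sum spanned 1.34-fold, against 1.58-fold for the Schwann cell sum and 41.4-fold for the muscle sum. The part of microglia in the level of *P2rx4* was not tested either.

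*P2rx7* (ENSRNOG00000001296), a channel opened by high ATP and tied to release of interleukin-1β, had 31.3, 38.5 and 37.2 CPM in sham libraries and 49.1, 35.8 and 38.3 CPM in SNI-NP libraries. Only SNI-NP replicate 1 stood above the sham range. The log2 difference was 0.20 (SE 0.15, 95% interval -0.16 to 0.56), with an adjusted p = 0.625 (edgeR quasi-likelihood), and it was 0.05 without that library. *P2rx4* and *P2rx7* are direct neighbours in the RefSeq gene order, with 0 protein-coding genes between them, but the library highest in *P2rx7* was not the highest in *P2rx4*.

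*P2rx6* (ENSRNOG00000001873), a subunit that works mainly in combination with other P2X subunits, was the steadiest of the 10, at 44.0, 38.6 and 38.3 CPM in sham libraries and 39.95, 36.0 and 40.9 CPM in SNI-NP libraries. Its 1.22-fold span was small, since 9.65% of all genes tested spanned less. The log2 difference of -0.05 had a 95% interval from -0.31 to 0.21, the narrowest of the 10 genes (edgeR quasi-likelihood, adjusted p = 0.892). *P2rx5* (ENSRNOG00000019208), a P2X subunit that gives small currents on its own, had 9.60, 4.67 and 9.77 CPM in sham and 4.60, 9.66 and 5.56 CPM in SNI-NP rats. Each group held both low and high values. Its log2 difference was -0.28 (SE 0.38, 95% interval -1.16 to 0.60, adjusted p = 0.800 in edgeR), moving to -0.66 when SNI-NP replicate 2 was left out and to -0.07 when SNI-NP replicate 1 was.

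Among the P2Y receptors, *P2ry2* (ENSRNOG00000019283), which responds to ATP and UTP alike, had 54.2, 62.95 and 52.5 CPM in sham libraries and 78.7, 61.8 and 74.8 CPM in SNI-NP libraries. The means were 56.6 ± 5.60 and 71.8 ± 8.86 CPM (SD, n = 3). Of the SNI-NP libraries, 2 stood above all sham libraries, while replicate 2 was just below sham replicate 2, so the groups overlapped. The log2 difference was 0.34 (SE 0.13, 95% interval 0.04 to 0.64), below an unadjusted p of 0.05 but far from the adjusted threshold (edgeR quasi-likelihood, adjusted p = 0.439). DESeq2 gave an adjusted p = 0.398, also with an unadjusted p under 0.05. The unadjusted p stayed under 0.05 in 2 of the 6 fits with 1 library left out, and was lost without sham replicate 1 (log2 difference 0.29), sham replicate 3 (0.26), SNI-NP replicate 1 (0.27) or SNI-NP replicate 3 (0.27).

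The 2 SNI-NP libraries with the highest *P2ry2* were also the highest in the summed markers of Schwann cells and peripheral myelin given beside *P2rx4*. Of these 3, 1 passed an unadjusted p of 0.05 (*Prx*, 4388 ± 318 against 5626 ± 887 CPM, edgeR adjusted p = 0.458). Taken singly, *Prx* and *Ncmap* were highest in the same 2 libraries, but *Pmp2* was not. This list was 1 of 13 marker lists compared, and the similar order of libraries was not particular to *P2ry2*. Spearman correlations with this sum over the 6 libraries were 0.94 for *P2ry2*, 0.83 for *P2ry14*, 0.77 for *P2rx4* and 0.71 for *P2rx7*. They were 0.60 for *P2ry1*, 0.54 for *P2rx6*, 0.26 for *P2ry6*, -0.26 for *P2rx2*, -0.31 for *P2rx3* and -0.94 for *P2rx5*. The part of peripheral nerve in the level of *P2ry2* was not tested. *P2ry6* is the next gene to *P2ry2* on chromosome 1, with 0 protein-coding genes between them, and did not share its pattern. Of the 13 marker lists, 2 had sums that were higher in every SNI-NP library than in every sham library. These were B cells (4.03 to 7.23 CPM in sham, 10.7 to 13.9 CPM in SNI-NP rats) and erythroid cells (19.7 to 43.9 and 55.8 to 159.7 CPM). Of all single genes tested, 18.5% had groups that did not overlap, in either direction.

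*P2ry6* (ENSRNOG00000019270), the UDP receptor known for microglial phagocytosis, had 3.48, 11.4 and 9.08 CPM in sham libraries and 7.88, 6.94 and 9.27 CPM in SNI-NP libraries. Both the lowest and the highest value came from sham rats. The means were 7.995 ± 4.08 and 8.03 ± 1.17 CPM (SD, n = 3), and the log2 difference was 0.0042 (SE 0.40, 95% interval -0.93 to 0.93, adjusted p = 0.998 in edgeR). The interval is wide, and a difference of up to 1.91-fold was within it. The 6 libraries had the same order in *P2ry6* as in the sum of the microglia and macrophage markers, the single identical order among 130 comparisons of the 10 genes with 13 marker lists. It is given as a description.

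*P2ry1* (ENSRNOG00000014232), an ADP receptor found on neurons and astrocytes, had 13.98, 20.05 and 14.8 CPM in sham and 18.3, 15.4 and 19.2 CPM in SNI-NP rats. The highest value was that of sham replicate 2. Its log2 difference was 0.12 (SE 0.18, 95% interval -0.30 to 0.53, adjusted p = 0.828 in edgeR). *P2ry14* (ENSRNOG00000013872), the receptor for UDP-glucose, had 4.44, 6.25 and 3.72 CPM in sham and 5.06, 4.33 and 6.49 CPM in SNI-NP rats. Its groups overlapped almost fully, with a log2 difference of 0.14 (SE 0.27, 95% interval -0.49 to 0.77, adjusted p = 0.869 in edgeR).

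**Figure D4:**
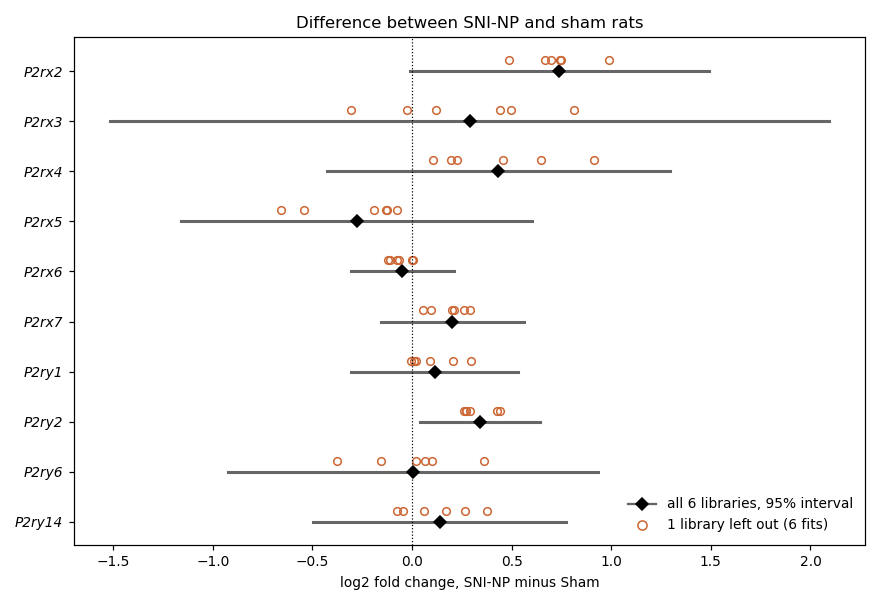
Log2 difference between SNI-NP and sham rats for the 10 P2 receptor genes, with the value and 95% interval from all 6 libraries in black and the 6 values with 1 library left out as open circles. The interval of *P2ry2* (0.04 to 0.64) lies above 0, and those of the other 9 include 0.

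The remaining P2 receptor genes were scarce. *P2ry12*, the ADP receptor that marks resting microglia, had 3.18, 4.17 and 4.01 CPM in sham and 4.08, 1.83 and 2.61 CPM in SNI-NP rats, so 2 of the 3 SNI-NP libraries were below all sham libraries. Its log2 difference was -0.42 (SE 0.33, edgeR adjusted p = 0.646). *P2rx1*, known from smooth muscle and platelets, was at 0.20 (SE 0.32) and *P2ry13*, another ADP receptor, at -0.07 (SE 0.39) on the same scale, with adjusted p = 0.833 and adjusted p = 0.959 in edgeR. *P2ry4*, a UTP receptor, had 1, 0 and 0 counts in sham and 7, 2 and 1 in SNI-NP rats. *P2ry10* had 3, 5.21 and 6 counts in sham and 1, 4 and 1 in SNI-NP rats, the 5.21 being an estimated count that is not whole. The low-count filter removed both, so they were not tested.

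The other genes of purinergic signalling were taken as lists, and 0 of their genes had an adjusted p under 0.05 in the edgeR fit. Of the 4 adenosine receptor genes, 0 had an unadjusted p under 0.05, and their median log2 difference was -0.13. *Adora1*, an inhibitory receptor that lowers cAMP, had 96.97, 40.1 and 83.9 CPM in sham and 49.3, 61.2 and 44.6 CPM in SNI-NP rats (log2 difference -0.51, SE 0.31, edgeR adjusted p = 0.555). The groups overlapped, with sham replicate 2 the lowest of all 6. *Adora2a*, a receptor that raises cAMP, was at 8.44 ± 2.47 CPM in sham and 10.7 ± 1.76 CPM in SNI-NP rats (log2 difference 0.34, SE 0.24, edgeR adjusted p = 0.611).

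Of the 10 tested genes for enzymes that break down nucleotides and adenosine, 0 had an unadjusted p under 0.05 (median 0.08 on the log2 scale). *Entpd2*, an ectoenzyme that turns ATP into ADP, had 89.6, 134.2 and 120.1 CPM in sham and 177, 133.6 and 138 CPM in SNI-NP rats. Sham replicate 2 lay just above the lowest SNI-NP library, and the log2 difference was 0.38 (SE 0.18, edgeR adjusted p = 0.482). *Entpd1*, which degrades ATP and ADP to AMP, was at 47.9 ± 10.9 CPM in sham and 57.2 ± 4.24 CPM in SNI-NP rats (log2 difference 0.25, edgeR adjusted p = 0.579), and some of its counts were not whole. *Entpd8* was not tested, and *Acp3* is not a symbol in the table, where *Acpp* stands.

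Of the 8 tested genes for release and transport of ATP and adenosine, 1 had an unadjusted p under 0.05 and was higher, and 0 were lower (median -0.08), which is near the 10.8% of all genes tested that passed in either direction. That gene was *Slc17a9*, the transporter that loads ATP into vesicles, with counts of 18, 13 and 14 in sham and 35, 21 and 31 in SNI-NP rats. All SNI-NP libraries were above all sham libraries, a lack of overlap seen in 18.5% of all genes tested in either direction, at 0.876 ± 0.182 CPM in sham against 1.66 ± 0.440 CPM after injury (SD, n = 3). Its log2 difference was 0.92 (SE 0.37), with an adjusted p = 0.445 in edgeR, and the counts behind it are small. *Panx3* was not tested.

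The list of 12 partners and signals of P2X4 and P2X7 in microglia includes *Bdnf*, *Ntrk2* and *Slc12a5*. In bulk tissue, their transcripts need not come from microglia. Of the 12 genes, 0 were higher and 2 lower at an unadjusted p under 0.05, with a median of -0.19. Over all genes tested, 4.91% were higher and 5.94% lower at this threshold. In the list, the groups did not overlap for 3 genes that were lower (*Ctss*, *Il18* and *Casp1*) and for 1 that was higher (*Mapk14*). Among all genes tested, 18.5% did not overlap, in either direction. *Ctss*, the cathepsin S that microglia release after P2X7 is opened, had 39.9, 43.5 and 46.9 CPM in sham and 26.0, 32.7 and 36.7 CPM in SNI-NP rats, without overlap (log2 difference -0.45, SE 0.15, edgeR adjusted p = 0.436). *Il18*, a cytokine cut by caspase-1, had 2.10, 3.89 and 2.85 CPM in sham and 1.90, 1.83 and 1.39 CPM in SNI-NP rats, also without overlap (log2 difference -0.79, SE 0.32, edgeR adjusted p = 0.446). Of the 8 microglia and macrophage markers, 4 had a positive and 4 a negative difference, and 0 had an unadjusted p under 0.05.

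**Figure D5:**
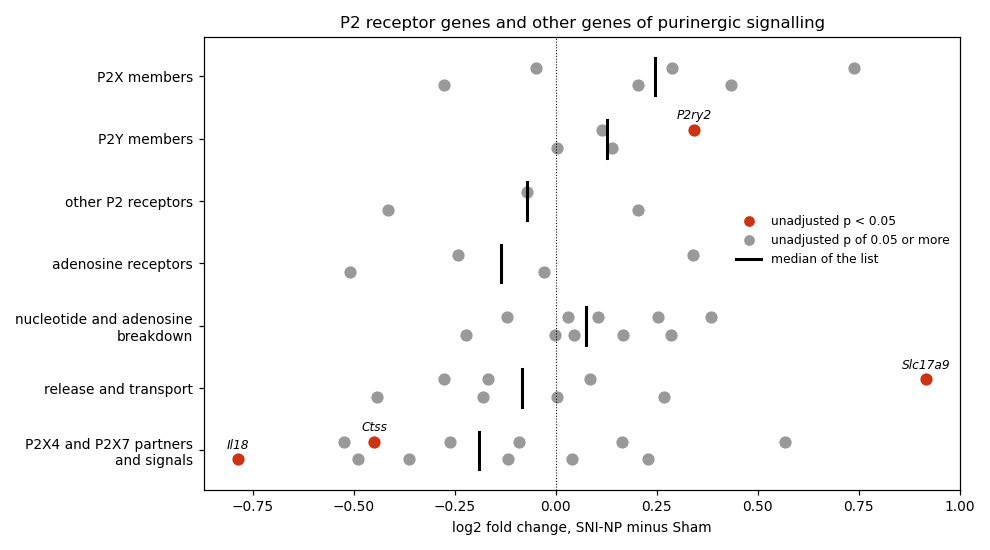
Log2 difference between SNI-NP and sham rats for each tested gene of the P2X and P2Y members, the other P2 receptors and 4 lists of purinergic signalling, with a bar at the median of each list. Red points, which are named, have an unadjusted p under 0.05: *P2ry2* and *Slc17a9* were higher and *Ctss* and *Il18* lower in SNI-NP rats.

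Values for the remaining marker lists bear on the tissue as a whole. Median log2 differences were -0.57 for 5 astrocyte, -0.44 for 5 oligodendrocyte, 0.0035 for 3 oligodendrocyte precursor and -0.19 for 5 neuron markers, with 1 astrocyte (*Slc1a2*) and 1 neuron marker (*Snap25*) lower at an unadjusted p under 0.05. They were 0.17 for 3 endothelial, 0.30 for 4 meningeal and fibroblast (1 higher, *Col1a1*), 2.28 for 5 muscle (1 higher, *Myh4*), 1.09 for 5 granulocyte (1 higher, *Mpo*), 1.13 for 4 B cell (3 higher) and 1.37 for 3 erythroid markers (3 higher). At an unadjusted p under 0.05 in the edgeR fit, 4.91% of all genes tested were higher and 5.94% lower. *Pecam1* is not a symbol in the table.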

How the data were processed

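RNA-seq of rat spinal cord was analysed, with 3 sham and 3 SNI-NP libraries grouped by the sample labels. Reads were mapped by the authors to the genome they call Rat6, keeping unique sequences. The submitters' processing notes name FastQC, STAR and HTSeq, without versions. The annotation and the use of strand are not given in the sources used here. The deposited table of the authors holds, for each gene, an estimated count that was not normalized and an FPKM value (the count scaled by gene length and library total). Of 22050 genes, 17508 had a count, and 2018 had a count that was not whole (tolerance 0.005). Reads of near-identical genes may have been divided between them. All 10 members had whole counts.

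The deposited counts were rounded, filtered by filterByExpr and scaled by TMM in edgeR (version 4.0.16, R 4.3.3). Groups were compared by the two-sided quasi-likelihood test, without covariates, and p-values of the 14426 genes kept were adjusted by Benjamini-Hochberg. The biological coefficient of variation common to all genes was 0.223. CPM values were computed from these counts with TMM factors, and FPKM values were used to compare levels between genes and to derive transcript lengths. Scripts were tested on simulated data. Depth was 16670760 to 18151156 counts per library.

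The paper's methods name DESeq2 with fold changes of FPKM. DESeq2 version 1.42.0 was run as an alternative, as were RLE and upper-quartile factors, no filter, a minimum of 10 counts in every library, the replicate number as a block, a correction for transcript length by loess offsets (span 0.5, alone or together with the block), ratios of mean FPKM, and the omission of each library in turn.

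All members and all other P2 receptor genes of the table were named. From each other pathway list the genes with an unadjusted p under 0.05 were named or, where there were none, the 2 with the smallest p. The members, lists and tests were chosen with earlier results of these data known. Of the listed marker genes, 3 are not reported here and were left out of the summed levels. The H3K27ac ChIP-seq was not analysed here.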

Additional observations from a re-analysis of the deposited data

How the results depend on the processing

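Under edgeR's quasi-likelihood test, the number of P2 receptor genes with an unadjusted p under 0.05 was 1 of 10. It was 2 with a minimum of 10 counts in every library and 2 with offsets on transcript length, where *P2rx2* joined *P2ry2*. It was 0 with the replicate number as a block, and 0 with the length offsets and the block together, where *P2ry2* had 0.34 in both. Leaving out 1 library at a time gave 0 to 2 genes, namely 0 when sham replicate 1, sham replicate 3 or the SNI-NP library of replicate 3 was omitted, 2 without sham replicate 2, and 1, which was *P2rx2*, without SNI-NP replicate 1. The number over all genes with an adjusted p under 0.05 was 0, and 192 with DESeq2. It was 0 to 222 with 1 library left out, with 222 without SNI-NP replicate 1 and 2 without sham replicate 2. The cause of these changes was not tested.

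Directions turned for *P2ry6*, which was at -0.01 with DESeq2 (-0.0067) and with RLE factors (-0.0073) and at -0.05 as a ratio of mean FPKM, and for *P2rx3*, at -0.21 with the block and -0.11 with the length offsets and the block. With 1 library left out, *P2rx3* ranged from -0.31 to 0.81, *P2rx6* from -0.12 to 0.0062, *P2ry1* from -0.0051 to 0.30, *P2ry6* from -0.37 to 0.36 and *P2ry14* from -0.076 to 0.38. The replicate numbers did not pair the libraries, since the deviations of same-numbered libraries from their group means correlated at 0.214, -0.143 and 0.0538. *P2rx2* ranged from 0.49 to 0.99, *P2rx4* from 0.11 to 0.92, *P2rx5* from -0.66 to -0.07, *P2rx7* from 0.05 to 0.29 and *P2ry2* from 0.26 to 0.44. The number of all genes with an unadjusted p under 0.05 was 1565. In comparisons added after the data had been seen it was 908 to 2134 with 1 library left out, lowest without sham replicate 1 (1019 without sham replicate 3, 917 without SNI-NP replicate 3) and highest without sham replicate 2, and 1319 to 2010 under the other settings, highest with length offsets. Depth limits *P2ry4*, *P2ry10* and *P2ry13* most, and *P2rx2* among the members, since these had the fewest counts, and a fit that leaves out 1 library assumes the 2 left in that group to vary like the other 3.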
